A study of Mus musculus with 6 samples.

Results

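Lysosomes are the acidic organelles in which proteins, lipids and sugar chains are taken apart, and the genes described here encode their machinery other than the cathepsins: soluble hydrolases and their helper proteins, proteins of the lysosomal membrane, subunits of the proton pump, and the transcription factor Tfeb. They were chosen by name and role, 39 in all. Each gene was read from its brightest probe set, by mean intensity over the 6 arrays, among those that name only that gene, which gave a value for 38 of the 39 among 18194 genes on the array. The gene without a value was Cd63, a lysosomal tetraspanin, which no probe set names alone. Of the 38, 33 had a mean above the median of all genes.

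At involution day 2, whole mammary glands from 3 WT and 3 Rac1-/- mice were each profiled on 1 Affymetrix mouse array, to compare glands with and without Rac1, a small GTPase that organises the actin skeleton, in the luminal epithelium. All mice carried floxed Rac1 alleles and a Rosa YFP reporter (Rac1fx/fx with RosaYFP), and the Rac1-/- mice in addition carried WAPiCre, a Cre recombinase under the whey acidic protein promoter, which turns on in luminal epithelial cells from mid-pregnancy. The WT mice lacked Cre, so Cre itself has no control among these arrays, and stromal, immune and myoepithelial cells of the Rac1-/- glands keep Rac1. Females were age-matched, mated at 8 to 12 weeks and allowed to nurse 6 to 8 pups for 7 to 10 days, and after the pups were taken away the inguinal gland (number 4) was collected at day 2. Each array holds 1 animal and none was pooled, so the spread between arrays includes that between animals.

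In the first days after weaning the milk-secreting epithelium dies and is cleared, and living mammary epithelial cells take up milk and cell corpses, which end in the lysosome. A vacuolar ATPase pumps protons into the lysosome, hydrolases with acidic optima work in its lumen, and Lamp proteins line its membrane. Newly made hydrolases are carried there on mannose 6-phosphate receptors, and Tfeb and its relatives switch on many of these genes through a short E-box element in their promoters. The comparison here asks how mRNA of this machinery differed between glands with and without epithelial Rac1 at the time of clearance.

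The letters CACGTG, the centre of the element that Tfeb binds, were searched on both strands in a window of 300 bases, from 250 before to 50 after each annotated start (RefSeq, GRCm38.p6). They were found for 11 of the 34 of these genes with an annotated promoter, or 32.4%, against 8.09% of all 27025 genes with one. A gene with several windows counted if any of them held a match. The longer TCACGTGA, which contains CACGTG, was found for 4 of the 34 (11.8%) against 1.12% of all genes with a promoter. Printed here are those 4, of Atp6v0d1 (chr8:105566015-105566314, minus strand), Atp6v1a (chr16:44139210-44139509, minus strand), Gla (chrX:134600956-134601255, minus strand) and Mcoln1 (chr8:3500269-3500568, plus strand), and the promoter with the most matches, that of Lamp1 (chr8:13158911-13159210, plus strand). Each is written 5′ to 3′ along the gene's strand, with CACGTG in capitals, since they show how differently placed the same letters are in 2 pump subunits, a glycosidase, a channel and a membrane protein.
Atp6v0d1: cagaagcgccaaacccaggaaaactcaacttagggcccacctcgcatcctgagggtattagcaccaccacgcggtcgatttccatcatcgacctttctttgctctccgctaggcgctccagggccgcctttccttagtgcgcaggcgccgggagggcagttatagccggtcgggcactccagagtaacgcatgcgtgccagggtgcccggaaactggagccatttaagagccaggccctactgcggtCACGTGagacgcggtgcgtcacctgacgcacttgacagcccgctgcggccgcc
Atp6v1a: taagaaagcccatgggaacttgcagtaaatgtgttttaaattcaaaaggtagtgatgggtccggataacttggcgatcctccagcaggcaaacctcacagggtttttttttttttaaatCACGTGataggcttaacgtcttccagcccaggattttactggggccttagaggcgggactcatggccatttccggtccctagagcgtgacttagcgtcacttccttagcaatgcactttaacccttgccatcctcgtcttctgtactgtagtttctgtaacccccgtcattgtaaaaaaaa
Gla: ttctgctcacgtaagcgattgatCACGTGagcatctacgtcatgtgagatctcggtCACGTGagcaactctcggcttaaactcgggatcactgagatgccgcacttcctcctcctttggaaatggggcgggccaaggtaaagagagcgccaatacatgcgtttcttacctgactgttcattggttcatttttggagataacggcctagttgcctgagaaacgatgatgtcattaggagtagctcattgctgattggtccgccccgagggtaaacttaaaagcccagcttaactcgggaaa
Mcoln1: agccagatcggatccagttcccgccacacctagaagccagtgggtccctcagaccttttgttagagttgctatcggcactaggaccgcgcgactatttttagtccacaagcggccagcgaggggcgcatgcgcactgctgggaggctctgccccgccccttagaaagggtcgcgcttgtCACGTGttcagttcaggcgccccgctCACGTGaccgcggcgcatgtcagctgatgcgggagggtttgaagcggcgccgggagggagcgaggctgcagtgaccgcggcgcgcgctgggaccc
Lamp1: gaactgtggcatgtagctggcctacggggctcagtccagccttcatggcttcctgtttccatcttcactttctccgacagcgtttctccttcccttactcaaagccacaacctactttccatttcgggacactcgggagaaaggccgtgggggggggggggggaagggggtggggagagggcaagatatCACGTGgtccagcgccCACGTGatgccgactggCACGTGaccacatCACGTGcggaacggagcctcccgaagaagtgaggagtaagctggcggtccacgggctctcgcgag
The Lamp1 window holds 4 matches centred from -58 to -12 relative to the start, whereas the single match of Atp6v0d1 lies over the start itself. Gla and Mcoln1 have 2 matches each and Atp6v1a has 1, centred at -128. The other genes with a match were Arsa, Gaa, Glb1, Lgmn, Naglu and Sgsh. A match is a description of these letters and does not show binding.

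**Figure D1:**
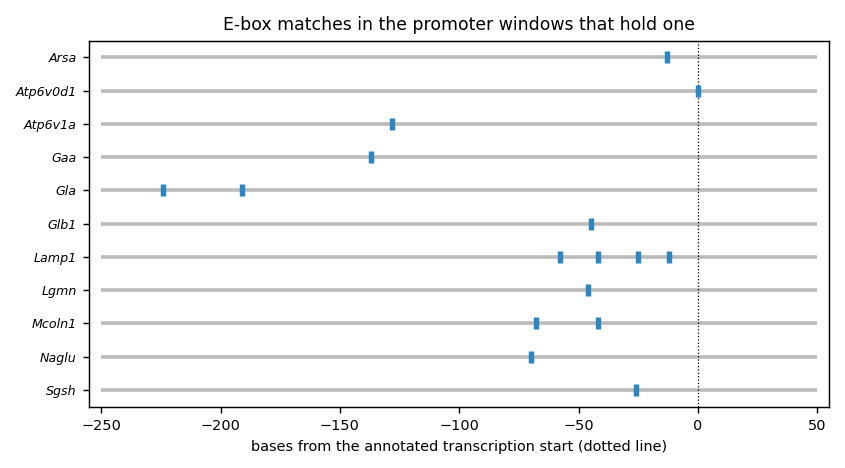
Position of each CACGTG match in the promoter windows of the 11 genes that hold one, with 1 row per gene and the distance from the annotated transcription start in bases on the horizontal axis. Most matches lie within the last 70 bases before the start, 4 of them in Lamp1, and those of Atp6v1a, Gaa and Gla lie farther upstream.

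No gene of the array passed the test in limma, a linear model whose variances borrow strength across genes, at an adjusted p under 0.05 (0% of genes, smallest adjusted p = 0.575), and at an unadjusted p under 0.05 the test gave 405 genes higher (2.23%) and 332 lower (1.82%) in Rac1-/- glands. The groups did not overlap for 5.41% of genes with Rac1-/- higher and for 4.2% with Rac1-/- lower. On its brightest probe set Rac1 had log2 intensities from 8.97 to 9.50 in WT and from 9.01 to 9.84 in Rac1-/- glands, and since the sources used here do not give the deleted exons, this probe set does not check the labels. WT replicate 3 (115) and Rac1-/- replicate 2 (195) lay at 1 end of the first principal component (43.6% of the variance). They are called the pair that stood apart, though the other 4 arrays were themselves spread from -136 to 12. Of those 4, Rac1-/- replicate 3 lay nearest to the pair, at 12. The actin control gene has probe sets near its 3′ and its 5′ end. Their log2 difference (3′ minus 5′) ran from -0.17 to 0.048 on WT arrays and from -1.24 to -0.30 on Rac1-/- arrays, so it separates the groups. On every Rac1-/- array the 5′ signal was thus the higher. Whether this difference tracks RNA quality here was not tested. The milk gene Csn2, which defines secretory epithelium, was at a log2 intensity of 14.63 or more in all 6 glands. It was lower in every Rac1-/- gland (14.63 to 14.99) than in any WT gland (15.55 to 15.96), with a log2 fold change of -0.86 (SE 0.42). That estimate was -1.68 without normalization between arrays and -2.15 with arrays scaled to a common median.

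Most of the lysosomal genes had lower means in Rac1-/- glands, 27 of 38 against 11 with higher means, though none passed the test (0 of 38, smallest adjusted p = 0.946 from limma). Their median log2 fold change was -0.46, beside 0.060 for all genes. At an unadjusted p under 0.05, 3 were lower and 0 higher, namely Gm2a, Lipa and Manba, where all genes gave 1.82% lower. Every Rac1-/- value lay below every WT value for 6 of the 38 (15.8%, against 4.2% of all genes), which were Atp6v0d1, Gm2a, Lipa, Psap, Manba and Fuca1, and above for 0 (against 5.41%). Log2 fold changes ran from -1.66 for Gaa to 0.94 for Sgsh, with standard errors from 0.43 to 1.05. In whole glands, fewer cells of a type and less RNA per cell cannot be told apart. With the actin difference as a covariate the median was -0.074 beside -0.034 for all genes, with 20 genes below 0 and 18 above. That difference separates the groups and was farthest out on Rac1-/- replicate 2 (-1.24). Estimates with this covariate therefore cannot part genotype from what the actin difference measures, and they are not values corrected for RNA quality. Without WT replicate 2 the median was -0.26 beside 0.041. Scaled to a common median instead of quantile normalized, the arrays gave -1.07 beside -0.12, with 35 genes below 0. This scaling leaves unequal spreads within arrays, with interquartile ranges on the log2 scale from 1.42 to 2.85 in WT and from 1.23 to 1.98 in Rac1-/-. Medians of other lists moved as well, from -0.14 to -1.13 for luminal and 0.17 to -0.93 for fibroblast markers, and from 0.19 to 0.61 for neutrophil markers.

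**Figure D2:**
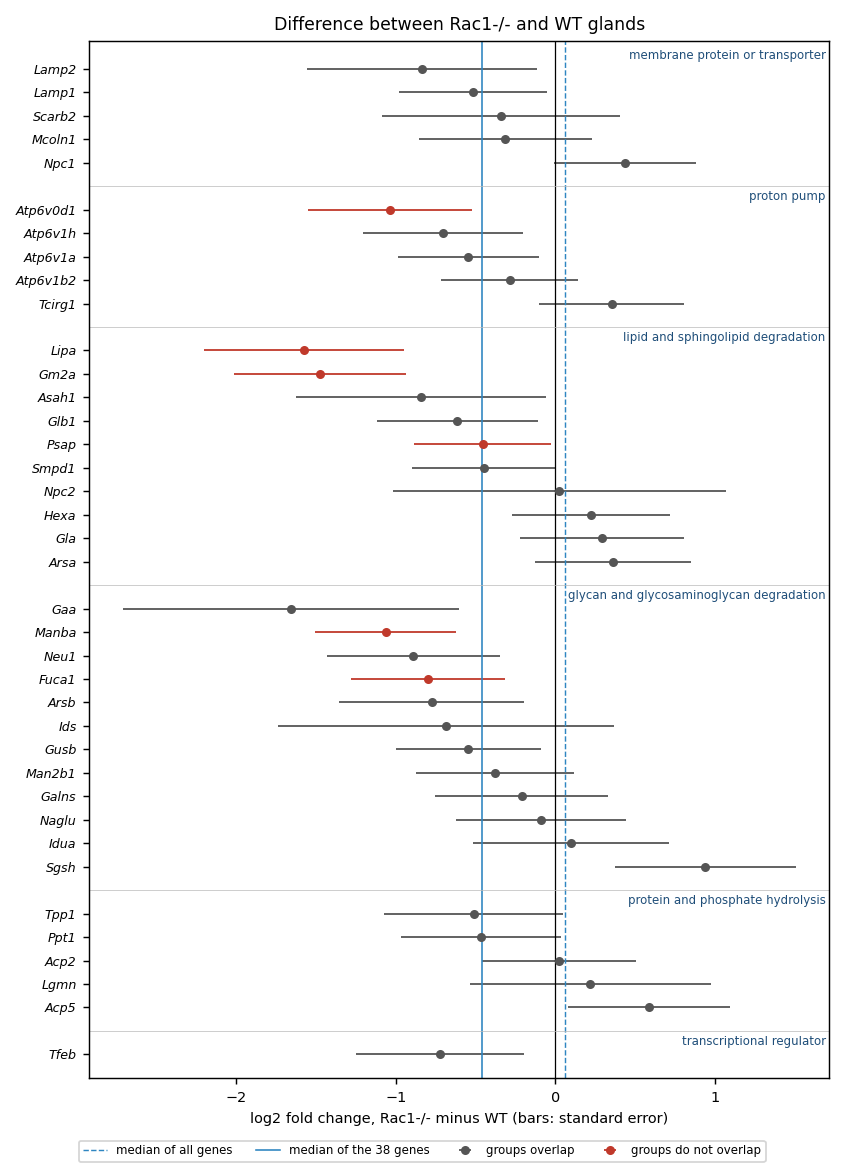
Estimated log2 fold change (Rac1-/- minus WT) of 38 lysosomal genes, 1 row per gene, grouped by role, with points as limma estimates and bars as standard errors (n = 3 mice per group). The estimates lie left of 0 for 27 genes, and the solid line at their median of -0.46 lies left of the dashed line at the median of all genes, 0.060. The 6 genes in red are those in which all Rac1-/- mice lay below all WT mice.

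Single mice were not equally placed. WT replicate 2 held the highest of the 6 values for 16 of the 38 genes (42.1%, against 12.7% of all genes), and Rac1-/- replicate 2 the lowest for 16 (42.1%, against 19.8%). Some genes are in both counts. Rac1-/- replicate 3 had the lowest value for 12 genes (31.6%, against 17.9%). Measured from each gene's own mean over the 6 mice, the median lysosomal gene lay at 0.17, 0.49 and -0.066 in WT replicates 1 to 3 and at 0.063, -0.32 and -0.28 in Rac1-/- replicates 1 to 3, on the log2 scale. Rac1-/- replicate 1 therefore lay above WT replicate 3, and the groups overlap in this measure. The range over the 6 mice was smallest for Atp6v1b2, at 0.81 on the log2 scale, and largest for Gaa, at 4.81, with a median of 1.72, and 14 genes had a range over 2.

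Lower means prevailed at each level of intensity at which these genes lay. Among genes in the highest quartile of mean intensity, where all genes had a median log2 fold change of -0.067 with 55.5% below 0, 16 of the 23 lysosomal genes lay below 0 with a median of -0.47. In the third quartile 7 of 10 did so, with a median of -0.58 beside 0.024, and in the second quartile 4 of 5, with -0.21 beside 0.17. None of the 38 genes had a value at the floor of the scale.

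Glycan-degrading enzymes had a median log2 fold change of -0.62, with 10 of 12 below 0. They strip sugars, sulfates and sialic acid from glycoproteins, glycogen and glycosaminoglycans, and an inherited lack of several of them causes mucopolysaccharidoses and related storage diseases. Manba, the beta-mannosidase that acts last in the breakdown of N-linked glycans, had log2 intensities of 6.67, 7.19 and 6.73 in WT against 5.48, 6.19 and 5.72 in Rac1-/- glands. The lowest WT mouse was thus above the highest Rac1-/- mouse, and the log2 fold change was -1.06 (SE 0.44, with an adjusted p of 0.946 in limma). It ran from -1.38 to -0.85 as each mouse was left out. Fuca1, the fucosidase that removes fucose from glycoproteins and glycolipids, had 7.45, 7.70 and 7.15 in WT against 6.90, 5.94 and 7.05 in Rac1-/- glands. Here the groups are separated by a narrow gap, between WT replicate 3 and Rac1-/- replicate 3, and the log2 fold change was -0.80 (SE 0.48, with an adjusted p of 0.946 in limma). On 2 other bright probe sets of Fuca1 it was -0.70 and -0.62, and on a dim one 1.64. It was -0.50 when Rac1-/- replicate 2 was left out and -0.043 with the actin covariate.

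Sgsh, a sulfatase of heparan sulfate breakdown, had the highest estimate of all 38 genes. Its log2 intensities were 5.72, 5.61 and 4.22 in WT against 6.69, 6.07 and 5.61 in Rac1-/- glands, so that the log2 fold change was 0.94 (SE 0.57, with an adjusted p of 0.946 in limma). The groups overlapped, since Rac1-/- replicate 3 was level with WT replicate 2, and WT replicate 3 was far below the other WT mice. Another, dimmer probe set of Sgsh gave -1.52 (SE 1.16). Gaa, the acid alpha-glucosidase that releases glucose from glycogen, had the lowest estimate, -1.66 (SE 1.05), but it rests on 1 mouse. Rac1-/- replicate 2 had a log2 intensity of 3.09 where the other Rac1-/- mice had 7.90 and 6.19 and the WT mice 7.19 to 7.54. Without that mouse the log2 fold change of Gaa was -0.38, and on a second probe set with all mice it was -0.19. The probe set in use for Gaa is of a type that can cross-hybridize. Ids, the iduronate sulfatase, depended on the same array, at -0.69 (SE 1.05) with all mice and 0.40 without it.

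The other enzymes of this role had log2 fold changes of -0.89 for the sialidase Neu1, -0.77 for the sulfatase Arsb and -0.55 for the beta-glucuronidase Gusb, and of -0.38 for the alpha-mannosidase Man2b1. Arsb owed much to WT replicate 3 and was -0.19 without it, and Neu1 was -0.41 without Rac1-/- replicate 3. Another bright probe set of Neu1 gave 0.064 (SE 0.80). Near 0 lay the sulfatase Galns at -0.21, the glucosaminidase Naglu at -0.090 and the iduronidase Idua at 0.097, and without normalization between arrays all 3 had the other sign, at 0.19, 0.38 and -0.15. The median of those of the 12 with a value stayed below 0 in each of the 16 other settings tried, from -0.96 scaled to a common median to -0.21 with probe sets that can cross-hybridize left out, and was -0.60 with the actin difference as a covariate.

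Enzymes and helper proteins of lipid breakdown included 3 of the 6 genes whose groups did not overlap. They degrade the lipids that reach lysosomes in membranes and fat globules, and the log2 fold change was below 0 for 6 of the 10, with -0.45 as the median. This median was nearer 0 without Rac1-/- replicate 2, at -0.22, and with the actin covariate it was -0.015, with 5 genes on either side of 0. Lipa, the acid lipase that frees fatty acids from cholesteryl esters and triglycerides, had log2 intensities of 9.98, 10.81 and 12.33 in WT against 9.66, 9.49 and 9.25 in Rac1-/- glands. The Rac1-/- mice lay close together below a wide WT group, and the log2 fold change was -1.57 (SE 0.63, with an adjusted p of 0.946 in limma), or -0.93 without WT replicate 3, the highest mouse. Its other probe sets gave -1.74 (SE 1.14) and -0.91 (SE 0.54), both with overlapping groups. Gm2a, the activator protein that presents the ganglioside GM2 to its hexosaminidase, had 9.82, 10.58 and 9.91 in WT against 9.10, 7.73 and 9.06 in Rac1-/- glands. Even the highest Rac1-/- mouse lay below the lowest WT mouse, for a log2 fold change of -1.47 (SE 0.54, with an adjusted p of 0.946 in limma). On the second bright probe set of Gm2a the groups again did not overlap, at -1.26 (SE 0.53), while a dim one gave 0.88. With the actin covariate the estimate was -0.55.

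Psap, the precursor of the saposins that help sphingolipid hydrolases reach their substrates, had log2 intensities of 10.78, 10.92 and 11.41 in WT against 10.71, 10.48 and 10.55 in Rac1-/- glands. The groups were separate but close, with a log2 fold change of -0.46 (SE 0.43, with an adjusted p of 0.946 in limma), and on another bright probe set of Psap the estimate was 0.15 (SE 0.63). Leaving out WT replicate 3 brought it to -0.27 on the first. Among the other lipid genes, the acid ceramidase Asah1 was at -0.84 (SE 0.78), which became -0.023 without Rac1-/- replicate 2. The beta-galactosidase Glb1 was at -0.61 (SE 0.50) and the sphingomyelinase Smpd1 at -0.45 (SE 0.45). Higher means were found for the sulfatase Arsa (0.36) and the alpha-galactosidase Gla (0.29), and for Hexa (0.22), a subunit of the hexosaminidase that Gm2a serves, which was at -0.38 when arrays were scaled to a common median. Npc2, the soluble carrier that hands cholesterol to the membrane, was at 0.025 (SE 1.04) and its values within WT alone ran from 9.05 to 11.91.

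**Figure D3:**
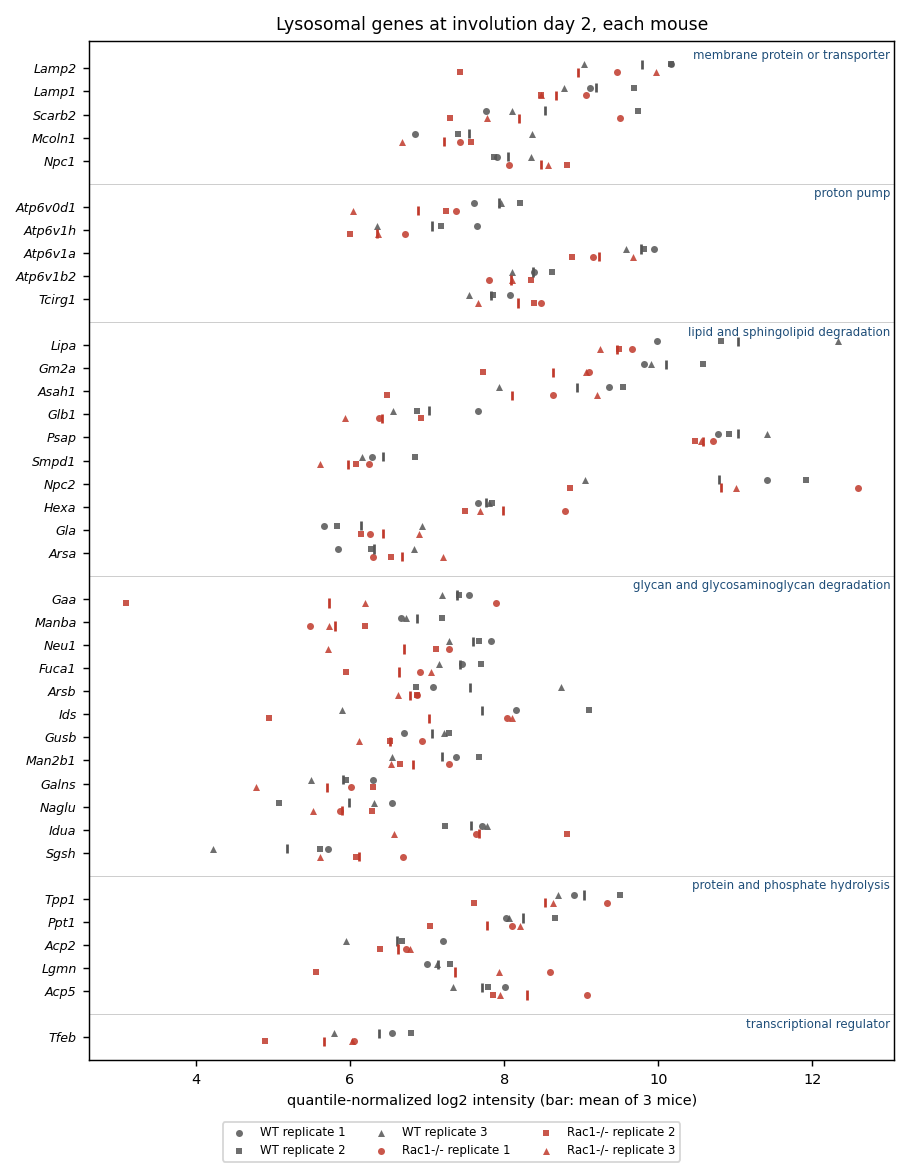
Quantile-normalized log2 intensity of each of the 38 genes in each mouse, 1 row per gene, with WT mice in grey and Rac1-/- mice in red, a marker shape per replicate and a bar at each group's mean. Rac1-/- replicate 2 (red squares) is the lowest mouse in 16 rows, such as Gaa at 3.09, and WT replicate 2 (grey squares) the highest in 16.

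Of 5 proton pump subunits, 4 had lower means in Rac1-/- glands, and the median log2 fold change was -0.54, or -0.20 with the actin covariate. Its V1 sector splits ATP on the cytosolic face and its V0 sector carries protons through the membrane. Atp6v0d1, the V0 subunit d that links both sectors, had log2 intensities of 7.61, 8.21 and 7.96 in WT against 7.38, 7.24 and 6.04 in Rac1-/- glands. No Rac1-/- mouse reached the lowest WT mouse, and the log2 fold change was -1.04 (SE 0.51, with an adjusted p of 0.946 in limma), or -0.63 without Rac1-/- replicate 3. Atp6v1h, the regulatory V1 subunit H, had 7.65, 7.18 and 6.35 in WT against 6.71, 6.0004 and 6.36 in Rac1-/- glands, and WT replicate 3 lay among the Rac1-/- mice. Its log2 fold change was -0.70 (SE 0.50, with an adjusted p of 0.946 in limma), and -0.38 without WT replicate 1 or -0.20 with the actin covariate. The catalytic V1 subunit Atp6v1a was at -0.54 (SE 0.44), or -0.11 with the covariate, and its second probe set also lay below 0. Its partner Atp6v1b2 was at -0.29 (SE 0.43), with another bright probe set above 0.

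Tcirg1 went the other way. It encodes the a3 form of the V0 subunit a, which is abundant in osteoclasts and is also made by macrophages, and had log2 intensities of 8.07, 7.86 and 7.54 in WT against 8.48, 8.39 and 7.66 in Rac1-/- glands. The groups overlapped, and the log2 fold change of 0.35 (SE 0.45, with an adjusted p of 0.959 in limma) became -0.46 when arrays were scaled to a common median. Of the other pump genes on the array, 14 of 18 lay below 0 and 4 above, their median was -0.22 (-0.083 with the covariate) and none passed the test. Separate groups with Rac1-/- lower were found for 2 of them (11.1%, against 4.2% of all genes). These were Atp6v0b, a subunit of the proton-carrying ring (-1.01, SE 0.45), and Atp6v1c2, a form of subunit C (-1.03, SE 0.51).

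Lysosomal membrane proteins had 4 of 5 genes below 0 and a median log2 fold change of -0.34, without any whose groups were separate. The median was -0.071 without Rac1-/- replicate 2, and it lay above 0 with the actin covariate, at 0.065. It was 0.048 for the 4 genes left without probe sets whose names end in _a_at, _s_at or _x_at, a setting in which Lamp1 had no value. Lamp1 and Lamp2 are the heavily glycosylated proteins that coat the inner face of the membrane, and Lamp2 is also needed for fusion with autophagosomes. Lamp1 had log2 intensities of 9.12, 9.69 and 8.77 in WT against 9.07, 8.48 and 8.48 in Rac1-/- glands, so that the log2 fold change was -0.52 (SE 0.46, with an adjusted p of 0.946 in limma). Only Rac1-/- replicate 1 lay within the WT range, and without WT replicate 2 the estimate was -0.27. Lamp2 had 10.16, 10.17 and 9.04 in WT against 9.46, 7.43 and 9.98 in Rac1-/- glands, for a log2 fold change of -0.84 (SE 0.72, with an adjusted p of 0.946 in limma). The pair of arrays that stood apart held the lowest Lamp2 value of each group, and without Rac1-/- replicate 2 the estimate was -0.071, and with the actin covariate 0.89. All 4 probe sets of Lamp2 lay below 0, from -1.09 to -0.64.

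The remaining membrane genes overlapped between groups as well. Scarb2, which carries glucocerebrosidase to lysosomes, was at -0.34 (SE 0.74) on the probe set with the highest mean, which was 0.26 without WT replicate 2. On a second bright probe set of Scarb2 the groups were separate with Rac1-/- lower, at -0.96 (SE 0.56). The calcium channel Mcoln1 was at -0.31 (SE 0.54) and turned to 0.10 without WT replicate 3. The cholesterol transporter Npc1 had a higher mean in Rac1-/- glands, at 0.44 (SE 0.45), and was at -0.43 when arrays were scaled to a common median. Of 19 other lysosomal membrane genes, 10 had estimates under 0 and 9 over 0, and the median was -0.041, beside 0.060 for all genes. It was 0.58 with the actin covariate, where 17 of the 19 lay above 0, and 0.39 without Rac1-/- replicate 2, where 14 did. At opposite ends were Tpcn1, a channel of endosomes and lysosomes (-1.26, SE 0.53), and Slc11a1, a metal ion transporter of phagocyte lysosomes (1.02, SE 0.43), each with separate groups and neither past the adjusted test. Each is 5.26% of the list, against 4.2% of all genes with Rac1-/- lower and 5.41% with Rac1-/- higher.

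Genes of protein and phosphate hydrolysis were divided, with 3 of 5 above 0 and a median log2 fold change of 0.021, while with the actin covariate all 5 lay above 0 and the median was 0.43. Acp5, the tartrate-resistant acid phosphatase of osteoclasts and some macrophages, had log2 intensities of 8.01, 7.79 and 7.33 in WT against 9.08, 7.86 and 7.95 in Rac1-/- glands. Rac1-/- replicate 1 was above all others while the remaining mice overlapped, and the log2 fold change was 0.59 (SE 0.51, with an adjusted p of 0.946 in limma), or -0.12 when arrays were scaled to a common median. Lgmn, the asparaginyl endopeptidase legumain, had 7.003, 7.30 and 7.12 in WT against 8.59, 5.56 and 7.93 in Rac1-/- glands. Its Rac1-/- mice lay on both sides of a tight WT group, so the log2 fold change of 0.22 (SE 0.75, with an adjusted p of 0.988 in limma) was 1.21 without Rac1-/- replicate 2, -0.39 without Rac1-/- replicate 1 and -0.056 scaled to a common median.

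Ppt1, the thioesterase that removes palmitate from proteins, had log2 intensities of 8.03, 8.65 and 8.06 in WT against 8.10, 7.03 and 8.21 in Rac1-/- glands. The Rac1-/- group held 1 mouse below all WT mice and 2 within their range, for a log2 fold change of -0.47 (SE 0.50, with an adjusted p of 0.950 in limma). Another bright probe set of Ppt1 had separate groups, at -1.06 (SE 0.55). The same was true of the tripeptidyl peptidase Tpp1, at -0.51 (SE 0.56) on the probe set with the highest mean and -1.16 (SE 0.48) on the second, on which the groups did not overlap. Without Rac1-/- replicate 2 the first-named probe sets gave -0.098 for Ppt1 and -0.057 for Tpp1. The acid phosphatase Acp2 was at 0.021 (SE 0.48), and at -0.35 when arrays were scaled to a common median.

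Tfeb itself had log2 intensities of 6.55, 6.80 and 5.79 in WT against 6.05, 4.90 and 6.02 in Rac1-/- glands. WT replicate 3 lay below 2 of the Rac1-/- mice, and the log2 fold change was -0.72 (SE 0.52, with an adjusted p of 0.946 in limma), or 0.16 with the actin difference as a covariate. Among 18 other genes of the Tfeb family and of the mTORC1 pathway that holds these factors in the cytosol, 12 had estimates under 0 and 6 over 0, the median was -0.17 and no gene had separate groups. With the actin covariate that median was 0.68, with 11 of the 18 above 0, and without Rac1-/- replicate 2 it was 0.021. The smallest p among them belonged to Tfec, a relative of Tfeb (-1.31, SE 0.74), and Tsc2, which restrains mTORC1 (-0.69, SE 0.54), and neither passed. Both the genes with CACGTG in the promoter window and those without lay mostly below 0. For those with it, 7 of 11 had lower means and the median was -0.31, and for the 22 others with a promoter and a value, 16 had lower means and the median was -0.49, which is a description with no test. The promoters printed above thus belong to genes on both sides of 0, from Atp6v0d1 at -1.04 to Gla at 0.29.

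Probe sets of the same gene did not always give the same sign. The 38 genes have 86 probe sets, and of the 25 genes with more than 1, 10 had all on 1 side of 0 and 15 on both. Restricted to the 65 probe sets above the median of all probe sets, 50 lay below 0. The share over all probe sets of that brightness was not computed. Of all genes above the median mean, 52.0% lay below 0. At that brightness 20 genes had several probe sets, and these all lay below 0 for 12 genes (Atp6v1a, Atp6v1h, Fuca1, Gaa, Gm2a, Ids, Lamp2, Lipa, Mcoln1, Ppt1, Scarb2 and Tpp1). They had both signs for 8 genes (Acp2, Arsb, Atp6v1b2, Gla, Idua, Neu1, Npc2 and Psap).

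**Figure D4:**
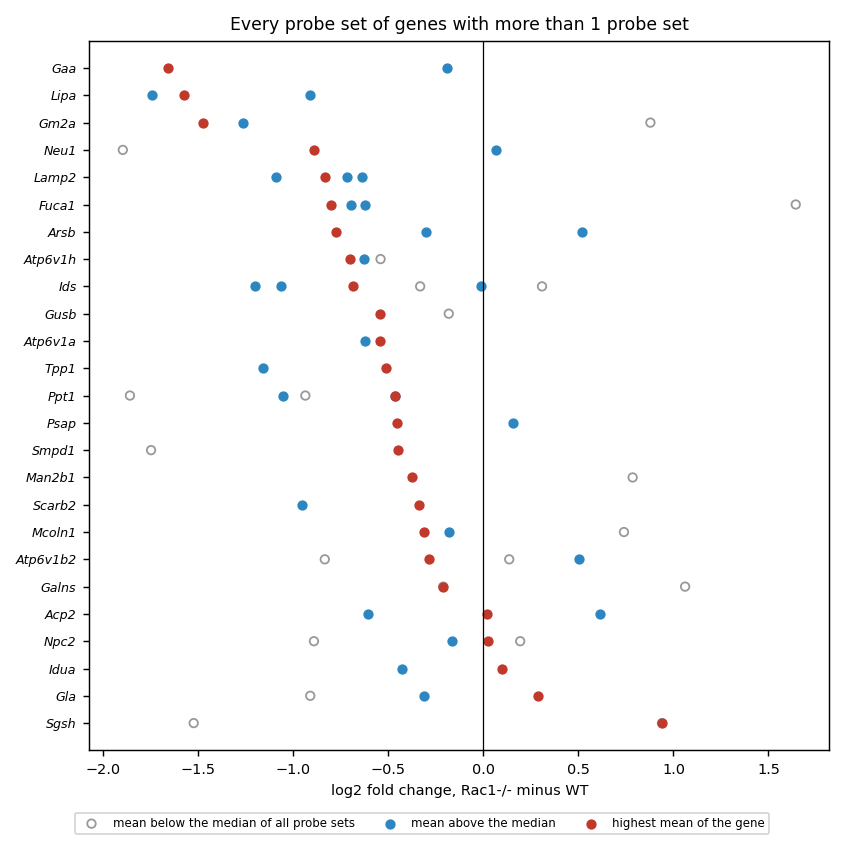
Log2 fold change of every probe set for the 25 genes with more than 1, 1 row per gene, with the probe set of highest mean in red, others above the median of all probe sets in blue and dimmer ones as open circles. The filled points lie left of 0 for 12 of the 20 genes with several bright probe sets, and the open circles spread widely to both sides, as for Gm2a at 0.88.

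Lysosomal enzymes outside the chosen genes also had mostly lower means in Rac1-/- glands. Of 16 further enzymes, the log2 fold change was below 0 for 13 and above 0 for 3, the median was -0.62 and none passed the test. Separate groups with Rac1-/- lower were found for 2 of these 16 (12.5%, against 4.2% of all genes), Hgsnat, a membrane-embedded acetyltransferase of heparan sulfate breakdown (-0.87, SE 0.47), and Ctbs, a chitobiase (-0.74, SE 0.45). Hyal2, a hyaluronidase anchored to membranes, was at -1.15 (SE 0.66) with overlapping groups. Their median lay below 0 in each of the 16 other settings as well, from -0.83 to -0.36, though the prior variance setting cannot move it. Of 11 genes of the mannose 6-phosphate route, which brings these enzymes to the lysosome, 7 had estimates under 0 and 4 over 0, and their median was -0.30. The groups were separate with Rac1-/- lower for 2 of these 11 (18.2%, against 4.2% of all genes). These were Gnptg, a subunit of the phosphotransferase that makes the tag (-1.06, SE 0.52), and Sort1, a sorting receptor (-0.68, SE 0.43).

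Markers of other cells also differed in mean between the groups. Macrophages are rich in lysosomes, and of the 19 of 20 macrophage markers with a value, 16 had estimates over 0 and 3 under 0. Their median log2 fold change was 0.68 (-0.059 when arrays were scaled to a common median), and their summed intensity ran from 3684 to 6432 in WT and from 5260 to 11455 in Rac1-/- glands. Separate groups with Rac1-/- higher were found for 3 of the 19 (15.8%, against 5.41% of all genes), and with Rac1-/- lower for 0 (against 4.2%). Fcer1g (1.31, SE 0.56) and Clec7a (1.22, SE 0.64) had the smallest p, and Cd68, which is on the lists of both macrophage markers and lysosomal membrane genes, was at 0.54. Of 13 luminal epithelial markers, 7 lay below 0 and 6 above, while their summed intensity, which the milk genes dominate, ran from 101040 to 139379 in WT and from 40516 to 52771 in Rac1-/- glands without overlap. Wap (-2.77, SE 0.45) and Lalba (-2.07, SE 0.52), both milk proteins, were lower in every Rac1-/- mouse than in any WT mouse. In all, 5 of the 13 had separate groups with Rac1-/- lower (38.5%, against 4.2% of all genes), namely Wap, Lalba, Elf5, Muc1 and Csn2. Another 3 had separate groups with Rac1-/- higher (23.1%, against 5.41%), the keratins Krt7 (1.35, SE 0.51) and Krt18 (0.90, SE 0.43) and the tight junction gene Cldn3 (0.93, SE 0.47). Scaled to a common median, these 3 were at 1.11, -0.23 and -0.11. No marker on these lists had a value at the floor. Their part in the lysosomal values was not tested.

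**Figure D5:**
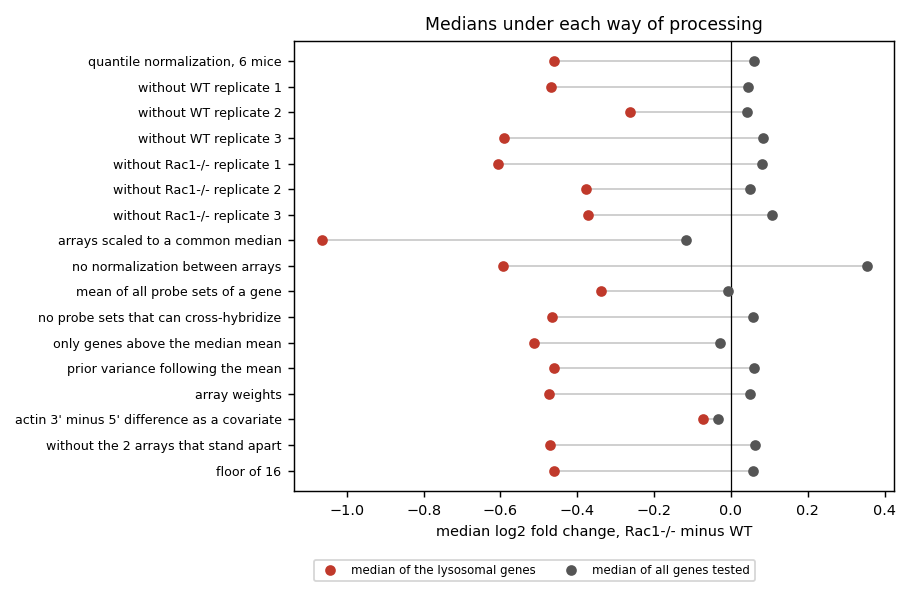
Median log2 fold change of the lysosomal genes (red) and of all genes tested (grey) under each way of processing, 1 row per setting. The red point lies left of the grey one in all 17 rows, with medians from -1.07 under a common median to -0.074 under the actin covariate, where both points nearly coincide. The row named for cross-hybridization leaves out probe sets whose names end in _a_at, _s_at or _x_at. The row for the prior variance repeats the first row by design.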

How the data were processed

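RNA of whole glands from 3 WT and 3 Rac1-/- mice was amplified by the authors (Affymetrix Sensation kit) and hybridized to mouse GeneChip arrays, and they deposited 1 linear intensity per probe set. How probe sets were summarised, normalized and tested is not given in the sources used here. With 2% of probe sets trimmed from each end the mean is 100 on every array, while medians run from 40.6 to 88.0, which fits scaling array by array.

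These intensities were then quantile normalized (limma 3.58.1 in R 4.3.3), floored at 1 and log2 transformed. Of 45101 probe sets, 34958 name 1 gene in the platform annotation, 932 several and 9211 none, and the last 2 kinds were left out. Symbols were checked by Entrez ID against RefSeq (GRCm38.p6) for 34754, and 0 differed. Each of 18194 genes took its probe set with the highest mean. Groups were compared with lmFit and eBayes, with Benjamini-Hochberg adjustment over 18194 genes at 0.05, and other probe sets were fitted in a second model over every probe set. Levels of different probe sets are not comparable, and the number of arrays limits the precision. An exact two-sided permutation test of 3 against 3 mice cannot give a p below 0.1.

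The genes, the other lists (further pump, enzyme, membrane, sorting and regulator genes, and markers of 10 cell types) and the settings were chosen with earlier results of these data known. Genes given in every mouse were those whose groups do not overlap, the 2 of each role with the smallest p, and Lamp1, Lamp2, Tfeb, Acp5, Tcirg1 and Lgmn. Of each other list the 2 genes with the smallest p are named. Values of single mice or settings for other genes, and Ctbs, Cd68, Csn2, Elf5, Muc1, Krt7, Krt18 and Cldn3, were picked after they were seen. Alternatives left out each mouse in turn or the pair of arrays that stood apart, changed the normalization, the probe set, the floor or the filter on dim genes, let the prior variance follow the mean, weighted the arrays, or took the actin difference as a covariate.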

Additional observations from a re-analysis of the deposited data

How the results depend on the processing

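In none of the 16 alternative settings did a lysosomal gene or any other gene pass limma's adjusted test. Of the 38 genes, 16 kept their direction in every setting in which they had a value, 15 lower and 1 (Arsa) higher. Among these, Lamp1 and Psap had a value in 15 of the settings and Smpd1 in 14. The settings of the prior variance and of the filter on dim genes cannot change a gene's fold change. The median log2 fold change of the lysosomal genes stayed below 0, at -1.07 with a common median for all arrays and -0.074 with the actin covariate, and between -0.61 and -0.26 as each mouse was left out. Genes lower at an unadjusted p under 0.05 numbered from 0 to 2 as each mouse was left out, 1 without the pair of arrays that stood apart and 1 with the actin covariate, and 4 with a common median, against 3. Genes higher numbered from 0 to 1 as each mouse was left out, 1 without normalization between arrays and 1 with the covariate, against 0. Over all 18194 genes, those at an unadjusted p under 0.05 in limma, in either direction, numbered from 403 to 1542 as each mouse was left out. They numbered 1335 without the pair, 1184 with the covariate, 948 with a common median and 826 without normalization between arrays, against 737. The actin covariate separates the groups, so estimates with it cannot part genotype from what the actin difference measures. Signs turned as follows, and the cause was not tested. With the actin covariate they turned for Idua (-1.16), Tfeb (0.16), Ppt1 (0.32), Tpp1 (0.43), Scarb2 (0.51), Gaa (0.89), Lamp2 (0.89), Asah1 (1.05) and Ids (1.81). A common median turned Npc2 (-1.06), Idua (-0.62), Tcirg1 (-0.46), Npc1 (-0.43), Hexa (-0.38), Acp2 (-0.35), Acp5 (-0.12) and Lgmn (-0.056), and no normalization between arrays Npc2 (-0.59), Idua (-0.15), Galns (0.19) and Naglu (0.38). The mean of all probe sets turned Gla (-0.31), Sgsh (-0.29), Npc2 (-0.21), Idua (-0.17), Mcoln1 (0.083), Man2b1 (0.20) and Galns (0.42). Leaving out probe sets whose names end in _a_at, _s_at or _x_at, so that a dimmer one was read, turned Npc2 (-0.17), Mcoln1 (0.74) and Man2b1 (0.79). Array weights turned Idua (-0.15), Acp2 (-0.13) and Npc2 (-0.051), and leaving out the pair of arrays Idua (-0.45) and Acp2 (-0.22). Over the mice left out in turn, Scarb2 from -0.98 to 0.26, Mcoln1 from -0.62 to 0.10, Hexa from -0.17 to 0.50, Npc2 from -0.86 to 1.01, Naglu from -0.51 to 0.18, Galns from -0.55 to 0.26, Idua from -0.52 to 0.66, Ids from -1.64 to 0.40, Lgmn from -0.39 to 1.21 and Acp2 from -0.32 to 0.29 crossed 0. With 3 mice a group and standard errors of 0.43 or more, differences of the size seen here could not be told from 0 after adjustment, which does not show that values did not differ. No paired analysis was possible because the labels link no WT mouse to a Rac1-/- mouse. The replicate numbers used here were assigned in the order of the samples and pair no mice.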

Other observations

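The other cell types on the marker lists, which are not part of the lysosomal comparison, gave the following values, with no gene past limma's adjusted test. Myoepithelial markers had a median log2 fold change of 0.021 with 5 of 9 genes above 0, and their summed intensity ran from 1770 to 2480 in WT and from 2751 to 4216 in Rac1-/- glands without overlap, led by smooth muscle actin Acta2 (1.24, SE 0.56) and Krt14 (1.25, SE 0.72). Neutrophil markers had a median of 0.19 with 5 of 9 above 0, and the formyl peptide receptor gene Fpr2 lay higher in every Rac1-/- mouse (1.63, SE 0.45), while S100a9 was at 0.73 (SE 0.81). Medians lay at 0.060 for 7 adipocyte markers (Pparg -0.81, Retn 0.66), at 0.17 for 6 fibroblast markers (Dcn 0.23, Col3a1 0.26) and at -0.098 for 6 endothelial markers (Cdh5 -0.50, Emcn -0.37). They lay at -0.0089 for 8 B and plasma cell markers (Ms4a1 0.86, Cd22 0.33), at -0.14 for 7 T and NK cell markers (Cd8a 0.86, Cd3g 0.53) and at -0.26 for 7 skeletal muscle markers (Actn3 0.68, Acta1 -1.11). Scaled to a common median, 5 of these medians had the other sign, at -0.37 for myoepithelial, -0.60 for adipocyte, -0.93 for fibroblast, 0.24 for T and NK cell and 0.021 for B and plasma cell markers.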
